A study of Mus musculus with 6 samples.

Results

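The genes described here encode the proteins of the cytosolic ribosome. They were chosen by symbol, as probe sets whose only listed gene was an Rpl or Rps gene with a number (among them 6 paralogs such as Rpl22l1), Rplp0, Rplp1, Rplp2 or Rpsa. The rule took 105 probe sets of 49 genes, out of 45101 probe sets and 18193 genes with a single-gene probe set. Of the 49 genes, 43 were core ribosomal proteins (22 of the large and 21 of the small subunit) and 6 were paralogs. The brightest probe set, with the highest mean over all arrays, stood for each gene, and 24 genes had further probe sets to set beside it. This mean includes the TAK1-deficient arrays. Among sets of similar wild-type signal the choice can therefore lean to the set that is higher in TAK1-deficient cells. Mouse RefSeq lists 84 protein-coding symbols that fit the rule. Of these, 8, among them Rps27a, are not analysed here. The symbols on the arrays were not limited to that list. Of those that fit the rule, 28 were seen only on probe sets that name several genes and are given separately.

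The 6 Affymetrix arrays measured RNA of B cells taken from the bone marrow of C57BL/6 mice, 8 to 12 weeks old. Cells carrying CD3, Ter119, CD11b, DX5 or Gr1 were removed and the B cells were sorted by surface light chain. Igκ+ cells labelled mb-1/TAK1f/f form the group called TAK1-deficient, and Igκ+ and Igλ+ cells labelled mb-1/TAK1+/+ form the wild-type groups, with 2 arrays each. The labels give mixed sex for every sample and leave unsaid the meaning of mb-1, the extent of the TAK1 loss, and whether the 2 arrays of a group came from separate animals. The p-values therefore measure only the spread between these arrays, which may be technical.

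A ribosome holds a single copy of most of these proteins, so their messages are made in similar and very large amounts in growing cells, and the proteins join ribosomal RNA in the nucleolus. Most of the messages begin with a run of pyrimidines at the cap, the terminal pyrimidine tract, through which Larp1 and the mTOR kinase control their translation. In developing B cells ribosome output follows growth signals and Myc, and several ribosomal proteins act outside the ribosome, for example Rpl5 and Rpl11, which bind Mdm2 and so stabilise p53 when ribosome assembly fails.

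The TAK1-deficient arrays stood apart from the other 4. The signals, deposited on a linear intensity scale, had the same trimmed mean on every array, but their median was 324 and 323 in TAK1-deficient cells and lay between 44.9 and 59.1 elsewhere. The geometric mean of 18 probe sets for control RNA spiked into each hybridization was 47043 and 41197 against 3985 to 4608. The ratio of 3′ to 5′ signal of Actb, which rises when RNA is degraded or copied incompletely, was 6.28 and 4.18 against 1.25 to 1.58, and that of Gapdh 2.55 and 2.54 against 1.2 to 1.56. Map3k7, which encodes TAK1, had signals of 346 and 599 in TAK1-deficient, against 2196 and 1805 in wild-type Igκ+ and 2149 and 1957 in wild-type Igλ+ cells. The position of its probes relative to the deleted part is not known here, so this checks nothing.

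B cell markers were present on every array. Summed signals of 8 of 9 listed genes were 78811 and 85676 in TAK1-deficient and 55388 to 60743 in wild-type cells. None was at the level of unspiked control probes, though Pax5 was dim, at 191 and 125 in TAK1-deficient cells. Against wild-type Igκ+ cells 4 of the 8 were called higher and 2 lower, where 26.1% of all genes were higher and 49.8% lower. The lower ones were Cd79a, with 2594 and 3166 against 6666 and 8190, and Blnk, with 2228 and 2160 against 4589 and 5785. Markers of some other cells moved with the groups. Granulocyte and monocyte sums differed widely within wild-type groups, with 36120 and 320, and 9780 and 376, in Igλ+ cells. Of 8 listed T cell markers, 7 were on the array, with sums of 4644 and 5085 in TAK1-deficient and 109 to 280 in wild-type cells. Bcl11b gave 2431 and 2313 and Icos 1046 and 1138 of the TAK1-deficient sums. The other T cell markers were dimmer, on arrays whose median signal was raised to 324 and 323. The 7 stromal and endothelial markers summed to 5008 and 4758 against 991 to 1293, but Pecam1 among them was lower, with 522 and 381 against 685 to 1060. The 6 plasma cell markers summed to 3077 and 3959 in TAK1-deficient and 8887 to 28970 in wild-type cells. Prdm1 among them was higher, with 391 and 759 against 71.7 to 219. Among T cell markers Cd3d was at the level of unspiked control probes in TAK1-deficient cells and Cd4 in wild-type Igκ+ cells. The part of other cells, RNA quality and array scaling in the differences below was not tested, and in such bulk samples fewer cells of a type and less RNA per cell cannot be told apart.

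The start sites of 8 genes are shown because these core genes had the largest differences of each direction among those with a RefSeq window (Rps14, Rpl8 and Rps29 had no entry), Rpl39, Rpl7a, Rps3a1 and Rpl4 with higher and Rps6, Rpl14, Rps25 and Rpl12 with lower deposited signals in TAK1-deficient cells. Rpl39 had to be among the higher genes because of the filter on low signals, as given below. Each sequence holds 60 bases before and 20 bases from the annotated start, read 5′ to 3′ on the gene's strand, from RefSeq on build GRCm38.p6. Capitals mark a run of at least 5 pyrimidines counted from a C within 5 bases of the start. More pyrimidines could come directly before that C, as at Rpl7a, Rpl14 and Rpl12, and were not counted.
Rpl39 (chrX:37085203-37085282, minus strand): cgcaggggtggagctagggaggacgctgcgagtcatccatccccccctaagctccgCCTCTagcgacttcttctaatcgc
Rpl7a (chr2:26910747-26910826, plus strand): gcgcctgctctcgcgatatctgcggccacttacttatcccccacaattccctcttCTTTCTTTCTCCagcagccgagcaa
Rps3a1 (chr3:86142649-86142728, minus strand): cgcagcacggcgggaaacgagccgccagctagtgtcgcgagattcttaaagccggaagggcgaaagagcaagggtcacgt
Rpl4 (chr9:64173327-64173406, plus strand): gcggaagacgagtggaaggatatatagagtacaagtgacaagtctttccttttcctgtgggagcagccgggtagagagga
Rps6 (chr4:86857348-86857427, minus strand): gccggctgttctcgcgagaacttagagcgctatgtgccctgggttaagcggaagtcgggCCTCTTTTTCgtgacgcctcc
Rpl14 (chr9:120571457-120571536, plus strand): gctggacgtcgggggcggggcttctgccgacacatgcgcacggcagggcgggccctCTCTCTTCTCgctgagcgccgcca
Rps25 (chr9:44407654-44407733, plus strand): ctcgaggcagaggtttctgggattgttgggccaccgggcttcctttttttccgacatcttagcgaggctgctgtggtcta
Rpl12 (chr2:32961652-32961731, plus strand): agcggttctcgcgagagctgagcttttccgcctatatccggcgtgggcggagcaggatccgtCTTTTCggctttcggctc
Counted from that C, the run was longest at Rpl7a, with 12 bases, and measured 10 at Rps6 and Rpl14, 6 at Rpl12 and 5 at Rpl39. Rps3a1, Rpl4 and Rps25 had no such run, which says only that these letters were not at the annotated start.

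RefSeq start windows were matched for 43 of the 49 genes, with 51 starts. The run, counted from such a C even inside a longer tract, was found on the sense strand at 21 of 51 starts (41.2%). The share was 18.3% of all 32851 starts, and on the antisense strand 13.7% against 21.4%. The letters CGGAAG, a core that ETS-family factors such as GABPA recognise, were searched on both strands of the window from 250 bases before to 50 bases after the start. They were found at 31 of 51 starts (60.8%), against 16.9% of all starts, and overlapped a run so counted at 0 of them. The run occurred among genes of either direction. It was present at a start of 8 of 13 genes with higher deposited signals in TAK1-deficient cells, 9 of 16 with lower signals and 3 of 11 that did not pass the test.

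The first comparison asked how these genes differ between TAK1-deficient and wild-type Igκ+ cells. In the deposited signals they moved apart from each other. Rpl7a, Rps3a1, Rpl4, Rps29 and Rpl38 were higher, with log2 differences from 1.09 to 1.39. Rps6, Rps14, Rpl14, Rps25, Rpl8 and the paralog Rpl22l1 were lower, with differences from -2.95 to -1.79, and 13 genes did not pass the test. Most of the higher and some of the lower genes changed side under other scalings, as given below. Of 46 genes tested, 14 were higher and 19 lower (limma, Benjamini-Hochberg adjusted p under 0.05), that is 30.4% and 41.3%, where 26.1% of all 11696 genes were higher and 49.8% lower. In both directions together 71.7% of these genes passed, against 75.9% of all genes, so the share called was near the background. The groups did not overlap for 84.8% of these genes and 89.6% of all genes. The median log2 difference was -0.10 over these genes and -0.70 over all genes. Among the 14 higher genes, Rpl39 and Rpl39l passed the filter on low signals only through the TAK1-deficient arrays, so their calls were fixed in advance. For genes with several probe sets, the choice of the brightest one over all arrays can also lean the calls upward.

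The direction of the family rested on how the arrays were scaled. The split of 14 higher and 19 lower became 5 and 31 with quantile normalization, 2 and 44 with each array centred on its median, 1 and 44 with scaling on the spiked controls, and 29 and 7 with the level adjustment, in which a smooth trend over the wild-type level is taken off each TAK1-deficient array. These settings moved the median of all genes to -0.85, -3.34, -3.97 and -0.02 and the median of these genes to -0.81, -2.81, -3.55 and 0.70. Relative to all genes the ribosomal protein median lay 0.60 above with the deposited scaling, and 0.03, 0.53, 0.41 and 0.72 above with the others. This position also rested on the filter on low signals. With no filter the median was 0.84 over all genes and -0.02 over ribosomal protein genes, a relative position of -0.87. Of all 18193 genes 8811 were then higher and 5892 lower. With the filter at the 60th percentile the ribosomal protein median lay 0.97 above. With the median over a gene's probe sets in place of the brightest one, the ribosomal protein median was -0.26 against -0.22 over all genes, and with only probe sets of the plain type, whose names carry no letter before the ending, 24 genes remained with a median of -1.07 against -0.59.

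**Figure D1:**
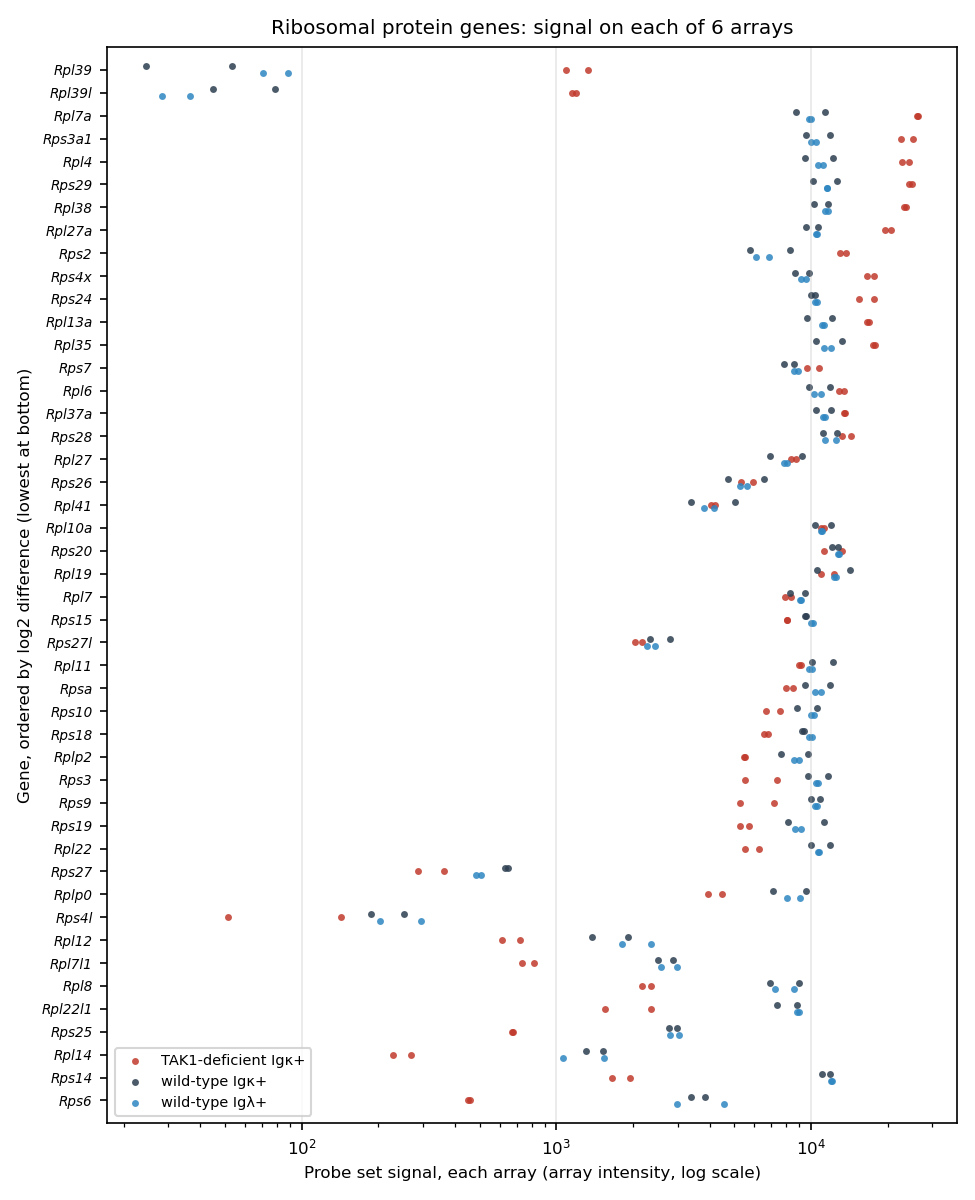
Signal of the brightest probe set of 46 ribosomal protein genes on each of 6 arrays (array intensity, log scale), 1 row per gene, ordered by the log2 difference between TAK1-deficient and wild-type Igκ+ cells. Wild-type points of most genes lie close together, while the TAK1-deficient points run from 1333 and 1096 (Rpl39) and 25990 and 26424 (Rpl7a), above the wild-type points, to 449 and 457 (Rps6), below them; quantile normalization, median centring, spiked-control scaling and the level adjustment each change the side of some genes.

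Among proteins of the small subunit, Rps6, Rps14 and Rps25 had the lowest differences on their brightest sets. Rps6, the substrate of the S6 kinases, had signals of 449 and 457 in TAK1-deficient, against 3397 and 3850 in wild-type Igκ+ and 4544 and 2992 in wild-type Igλ+ cells. Both TAK1-deficient arrays lay below all wild-type arrays, with a log2 difference of -2.95 ± 0.22 (SE; limma, Benjamini-Hochberg adjusted p = 1.13e-05). Another, dimmer single-gene set of Rps6 was higher, at 2.48, and with the median over its probe sets the call was lost (-0.24; limma, Benjamini-Hochberg adjusted p = 0.397). Rps14, whose gene is lost in a form of myelodysplastic syndrome, had 1663 and 1944 in TAK1-deficient, against 11048 and 11875 in wild-type Igκ+ and 12131 and 12030 in Igλ+ cells. The groups were far apart, with a difference of -2.66 ± 0.13 (limma, Benjamini-Hochberg adjusted p = 3.97e-06). Rps25, which some viral messages need to start translation, had 670 and 675 against 2982 and 2781 in wild-type Igκ+ and 3033 and 2790 in Igλ+ cells. Its log2 difference was -2.07 ± 0.16 (limma, Benjamini-Hochberg adjusted p = 1.46e-05). The other probe set of Rps14 had a log2 difference of -3.13, while a brighter set that lists Rps25 with other genes was at 0.58. Over the 20 core genes of the small subunit tested, 6 were higher and 10 lower, near the 26.1% and 49.8% of all genes, with a median of -0.30.

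Rps19, mutated in Diamond-Blackfan anaemia, and Rps3, which lies at the entry of the message, were lower by less. Rps19 had 5289 and 5700 in TAK1-deficient, against 8152 and 11226 in wild-type Igκ+ and 9152 and 8697 in Igλ+ cells, a log2 difference of -0.80 ± 0.16. Rps3 had 5518 and 7354 against 9778 and 11686 in wild-type Igκ+ and 10703 and 10502 in Igλ+ cells, a difference of -0.75 ± 0.16. For both, the TAK1-deficient arrays lay below every wild-type array (limma, Benjamini-Hochberg adjusted p = 0.00226 and 0.00326), and with the level adjustment the differences were 0.08 and 0.04. Rpsa, also known as the laminin receptor precursor, had 8540 and 7963 against 9503 and 11909, a difference of -0.37 ± 0.14 (limma, Benjamini-Hochberg adjusted p = 0.0406) that turned to 0.42 with the level adjustment and to 1.41 with the median over its probe sets. The call for Rpsa did not hold without any of 5 arrays in turn: the adjusted p ranged from 0.0573 without the first wild-type Igλ+ array to 0.183 without the second wild-type Igκ+ array.

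On the large subunit, Rpl14, Rpl8 and Rpl12 were lower on their brightest single-gene sets. Rpl14 had 229 and 269 in TAK1-deficient, against 1314 and 1528 in wild-type Igκ+ and 1538 and 1064 in Igλ+ cells, a log2 difference of -2.44 ± 0.27. Rpl8, which sits near the peptidyl transferase centre, had 2177 and 2355 against 6902 and 9018 in wild-type Igκ+ and 8584 and 7251 in Igλ+ cells, a difference of -1.79 ± 0.17. Rpl12, at the base of the ribosomal stalk, had 723 and 615 against 1914 and 1384 in wild-type Igκ+ and 2355 and 1809 in Igλ+ cells, a difference of -1.27 ± 0.24. In each the TAK1-deficient arrays lay below all others (limma, Benjamini-Hochberg adjusted p = 6.92e-05, 3.28e-05 and 0.00136). With the level adjustment Rpl12 turned to 0.17. Brighter probe sets that list Rpl12 with other genes were not lower in this way. They had 8134 and 7977 against 7360 and 9470 in wild-type Igκ+ cells (-0.05), and 9833 and 9398 against 6832 and 8110 (0.37). Over the 21 core genes of the large subunit tested, 7 were higher and 6 lower, with a median of 0.00, where 26.1% of all genes were higher and 49.8% lower.

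The proteins of the stalk, which recruits elongation factors, were lower where a probe set could be read. Rplp0, its anchor, had 3952 and 4492 in TAK1-deficient, against 7090 and 9595 in wild-type Igκ+ and 9044 and 8041 in Igλ+ cells, a difference of -0.97 ± 0.17. Rplp2, one of its acidic arms, had 5448 and 5506 against 7628 and 9726 in wild-type Igκ+ and 8947 and 8546 in Igλ+ cells, a difference of -0.65 ± 0.14. Both passed the test (limma, Benjamini-Hochberg adjusted p = 0.000981 and 0.0034). Under the level adjustment Rplp0 was at -0.03 and Rplp2 at 0.26. The other acidic arm, Rplp1, was seen only on probe sets that name several genes. The brightest of these had 1376 and 1348 in TAK1-deficient, against 7716 and 9995 in wild-type Igκ+ and 8729 and 8615 in Igλ+ cells, a log2 difference of -2.67 that entered no test.

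Of the pair that binds Mdm2, Rpl11 had 9157 and 8955 in TAK1-deficient, against 12231 and 10062 in wild-type Igκ+ and 9864 and 10091 in Igλ+ cells. Its log2 difference of -0.29 (95% interval -0.59 to 0.01) did not pass (limma, Benjamini-Hochberg adjusted p = 0.0694), and it passed without the second wild-type Igκ+ array, at 0.0149. Rpl5 was seen only on probe sets of several genes, the brightest with 18476 and 19866 against 9061 and 11073 in wild-type Igκ+ and 9850 and 9889 in Igλ+ cells, a log2 difference of 0.93. The other 2 sets that list Rpl5 went the other way, with 966 and 867 against 1744 and 1651 (-0.88) and with 604 and 792 against 1956 and 1835 (-1.43), so the sets gave no single direction for Rpl5.

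Of the 14 higher genes, 12 had wild-type Igκ+ means of at least 7000, as had 12 of the 19 lower ones. Rpl7a, a large subunit protein, had 25990 and 26424 in TAK1-deficient, against 8761 and 11404 in wild-type Igκ+ and 9860 and 10046 in Igλ+ cells, a log2 difference of 1.39 ± 0.14 (limma, Benjamini-Hochberg adjusted p = 4.75e-05). Rps3a1, of the small subunit, had 22485 and 25254 against 9590 and 11884 in wild-type Igκ+ and 10046 and 10488 in Igλ+ cells, a difference of 1.16 ± 0.14. Rpl4, which lines the exit tunnel, had 22878 and 24299 against 9499 and 12218 in wild-type Igκ+ and 11192 and 10645 in Igλ+ cells, a difference of 1.13 ± 0.14. All 3 lay above 16295, the highest signal of any probe set on the wild-type arrays. Rpl38, needed for the translation of some Hox messages, had 23602 and 23147 against 10285 and 11675 in wild-type Igκ+ and 11656 and 11323 in Igλ+ cells, a difference of 1.09 ± 0.11. Rps29, a zinc-binding protein of the small subunit, had 24251 and 24864 against 10233 and 12608 in wild-type Igκ+ and 11559 and 11541 in Igλ+ cells, a difference of 1.11 ± 0.13. Its other 2 single-gene sets, also bright, were at 0.02 and -0.30, and with the median over its probe sets the call was lost (0.02; limma, Benjamini-Hochberg adjusted p = 0.943). Rpl27a and Rps2 followed with 0.98 ± 0.11 and 0.95 ± 0.18 (limma, Benjamini-Hochberg adjusted p from 5.49e-05 for Rpl38 to 0.00134 for Rps2).

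Single genes followed the scaling as the family did. Median centring and spiked-control scaling moved all genes down, so that Rpl7a, Rps3a1, Rpl4, Rps29, Rpl38, Rpl27a and Rps2 had to turn, to between -1.76 (Rps2) and -1.33 (Rpl7a) and between -2.50 and -2.07, and lower genes had to stay lower. The level adjustment moved most genes up, so that the same 7 had to stay higher, at 1.79 (Rpl27a) to 2.22 (Rpl7a). Quantile normalization left Rpl7a at 0.27 and Rps2 at 0.63 and put the other 5 between -0.37 (Rps29) and -0.10 (Rpl27a). Under the level adjustment 9 named members that were below 0 with the deposited scaling were above it, among them Rpl12, Rps19, Rps3, Rplp2 and Rpsa. Rps6, Rps14, Rpl14, Rps25, Rpl8, Rpl22l1 and Rps4l stayed lower and past the threshold under it, at -1.57, -1.94, -1.14, -0.60, -0.82, -1.13 and -1.65 (limma, Benjamini-Hochberg adjusted p from 4.57e-05 for Rps14 to 0.0254 for Rps4l).

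Of the paralogs, Rpl22l1 was lower as its parent was, and Rpl7l1 was lower where the brightest set of its parent did not pass. Rpl22, which binds small RNAs and is needed for αβ T cell development, had 5505 and 6256 in TAK1-deficient, against 10051 and 11872 in wild-type Igκ+ and 10670 and 10756 in Igλ+ cells, a log2 difference of -0.89 ± 0.13. Its paralog Rpl22l1, which Rpl22 is known to hold down, had 1551 and 2357 against 8829 and 7354 in wild-type Igκ+ and 8794 and 8995 in Igλ+ cells, a difference of -2.07 ± 0.20. Both were thus lower, and the TAK1-deficient arrays lay below every wild-type array (limma, Benjamini-Hochberg adjusted p = 0.000395 and 4.13e-05). Rpl7l1 had 734 and 819 against 2521 and 2874 in wild-type Igκ+ and 2984 and 2572 in Igλ+ cells, a difference of -1.77 ± 0.18, while its parent Rpl7 had 7895 and 8382 against 8308 and 9452 in wild-type Igκ+ cells, a difference of -0.12 (95% interval -0.41 to 0.16) with overlapping groups. With every probe set as a feature the other sets of Rpl7 passed as lower, at -0.42 and -1.07 (limma, Benjamini-Hochberg adjusted p = 0.0187 and 0.0279). Rps27l, a p53 target, had 2043 and 2166 against 2341 and 2797 in wild-type Igκ+ and 2453 and 2265 in Igλ+ cells. Its difference of -0.28 (95% interval -0.66 to 0.10) did not pass. The other sets of Rps27l passed as lower, at -1.10 and -1.01 (limma, Benjamini-Hochberg adjusted p = 0.000742 and 0.00407). Both contrasts therefore depended on the probe set.

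Rps27, the parent of Rps27l, had a dim single-gene set. Rps27 had 286 and 362 in TAK1-deficient, against 632 and 647 in wild-type Igκ+ and 507 and 484 in Igλ+ cells, a difference of -0.96 ± 0.28. It passed (limma, Benjamini-Hochberg adjusted p = 0.0133), but not without the first TAK1-deficient array (0.076) or without the first or second wild-type Igκ+ array (0.0528 and 0.0613). Rps4l, also dim, had 51.6 and 143 against 187 and 253 in wild-type Igκ+ and 294 and 204 in Igλ+ cells, a difference of -1.17 ± 0.47 (limma, Benjamini-Hochberg adjusted p = 0.0475), and its call was lost without the first TAK1-deficient array (0.322) or without either wild-type Igκ+ array (0.0833 and 0.193). The first of its TAK1-deficient signals was under the 95th percentile of 27 unspiked control probe sets, 77.7 on that array. Its parent Rps4x, on the X chromosome, was higher, with 16588 and 17620 against 8642 and 9835 in wild-type Igκ+ and 9524 and 9133 in Igλ+ cells, a difference of 0.89 ± 0.12 that turned to -1.83 with median centring and -2.57 with spiked-control scaling. Rpl3l had 24.4 and 32.9 against 13.8 and 14.2 and did not pass the filter on low signals. Its parent Rpl3, on probe sets of several genes only, had 8797 and 8839 against 8745 and 10156, a log2 difference of -0.10.

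Rpl39, a small protein of the exit tunnel, and its paralog Rpl39l, abundant in testis, gave the largest differences of the family. Rpl39 had 1333 and 1096 in TAK1-deficient, against 24.5 and 53.3 in wild-type Igκ+ and 88.3 and 70.4 in Igλ+ cells, a log2 difference of 4.53 ± 0.38. Rpl39l had 1193 and 1152 against 44.8 and 78.7 in wild-type Igκ+ and 36.5 and 28.2 in Igλ+ cells, a difference of 3.97 ± 0.36. The groups lay far apart (limma, Benjamini-Hochberg adjusted p = 1.93e-05 and 2.62e-05), but both probe sets passed the filter on low signals only through the TAK1-deficient arrays and so had to differ. On an array whose median probe set was at 324 instead of 44.9 to 59.1, dim probe sets were high in general. A brighter probe set that lists Rpl39 with another gene had 19674 and 20511 against 12131 and 10835 in wild-type Igκ+ cells, a log2 difference of 0.81. With spiked-control scaling Rpl39l was at 0.77 and did not pass (limma, Benjamini-Hochberg adjusted p = 0.0926).

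Compared with genes of the same wild-type brightness, ribosomal protein genes were called higher more often and lower less often, as a description without a test. In wild-type Igκ+ cells 34 of these genes had mean signals of at least 7000, from 7011 to 12439, a 1.77-fold span. In TAK1-deficient cells the signals of the same probe sets ran from 1803 (Rps14) to 26207 (Rpl7a), a 14.5-fold span. The band was set on wild-type signals, so the wild-type span had to be narrow. The other 143 genes of the band widened more, from a 1.72-fold span to a 205-fold span (233 to 47840), so the spreading was not particular to ribosomal protein genes. Of the 34, 12 were higher and 12 lower (35.3% each), with a median log2 difference of -0.01. Of the other 143 genes in that band, 18.2% were higher and 55.9% lower, with a median of -0.55. The interquartile ratio of the 43 core genes, the upper over the lower quartile of signal on an array, was 3.35 and 3.23 on the TAK1-deficient arrays and 1.41 to 1.6 on the wild-type arrays. Signals of different probe sets also carry the strength of their probes, so these spans compare arrays and not amounts of RNA between genes.

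**Figure D2:**
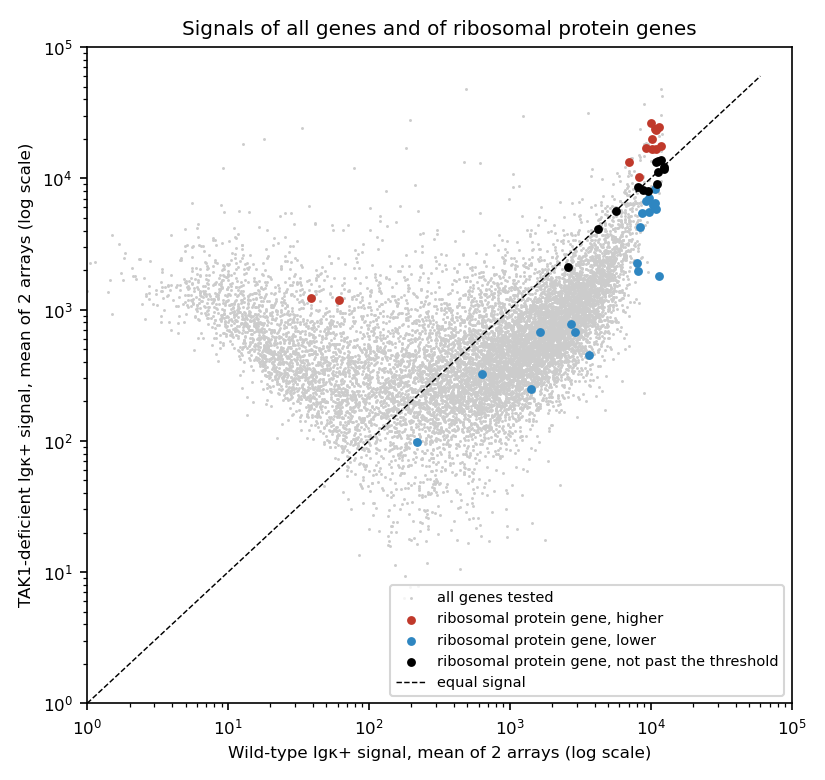
Mean signal in TAK1-deficient against wild-type Igκ+ cells (means of 2 arrays, both axes on log scales), for all genes tested (grey) and ribosomal protein genes that were higher (red), lower (blue) or not past the threshold (black) with the deposited scaling. At wild-type signals from 7011 to 12439 the ribosomal protein genes spread vertically from 1803 to 26207. Other genes with wild-type signals of at least 7000 spread further, from 233 to 47840. Most genes of middle brightness lie below the line of equal signal. Median centring or spiked-control scaling puts 44 of the 46 genes lower, and the level adjustment puts 29 higher.

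Over the 105 probe sets, the log2 signals had a Pearson's r of 0.991 to 0.995 between arrays of a group, 0.988 to 0.997 between the wild-type groups and 0.830 to 0.865 between TAK1-deficient and wild-type arrays. Over the 41 core genes tested, the last ranged from 0.649 to 0.743. These correlations are across probe sets that share each array's scaling, and probe sets are not independent replicates. The pattern of the TAK1-deficient arrays was thus shared by both of its arrays.

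Probe sets of the same gene often disagreed about the genotype. Of the 24 genes with several probe sets (80 sets), all sets gave the same sign of the log2 difference for 11 genes and mixed signs for 13, with a median range of 1.36 between the lowest and highest set of a gene. Among sets with a wild-type mean of at least 1000 (20 genes, 59 sets), 13 genes had the same sign and 7 mixed signs, with a median range of 0.84. Between the wild-type light chain groups, the same 59 sets had a median range of 0.11 and a largest range of 0.80. A genotype difference read from 1 probe set of a gene was thus often not the one read from another.

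Rps6, Rps24 and Rps18 disagreed most. The other single-gene probe set of Rps6 had 230 and 300 in TAK1-deficient against 39.1 and 29.3 in wild-type Igκ+ cells, a log2 difference of 2.48 beside the -2.95 of the brighter set. Rps24, mutated in Diamond-Blackfan anaemia, had 6 sets. The 4 bright ones had differences from 0.12 to 0.70, and the 2 dim ones were at -1.02 and 3.08. With the median over the sets of Rps24 the call was lost (0.25; limma, Benjamini-Hochberg adjusted p = 0.0685). Rps18, in the head of the small subunit, had 3 bright sets from -0.48 to -0.35 and 3 dim ones from -2.10 to 1.57, and with the median over its sets it was higher, at 0.57. Rpl41, singled out after its values were seen, differed most among bright sets, from -1.16 to 2.44, with signals of 6912 and 6829 against 1144 and 1381 at the highest. Among genes with at least 3 sets, Rps28, Rpl7l1 and Rps27l, with 3 each, disagreed least. The 3 sets of Rps28 lay between -0.16 and 0.22, those of Rpl7l1 between -2.07 and -1.25 and those of Rps27l between -1.10 and -0.28.

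The kind of probe set moved with the direction. Affymetrix marks sets whose probes match several transcripts of a gene (_a_at) or cross-match other sequences (_s_at and _x_at). Among sets with a wild-type mean of at least 1000, 1 of 15 plain sets was higher in TAK1-deficient cells, with a median of -1.27. Of 36 _x_at sets 17 were higher, with a median of -0.03, of 27 _a_at sets 11 were higher, with a median of -0.28, and of 3 _s_at sets 0 were higher, with a median of -1.99. Dim sets leaned the other way. Of 24 sets with a wild-type mean under 1000, 15 were higher, with a median of 0.54, against 29 of 81 brighter sets, with a median of -0.37. Whether cross-matching transcripts, such as those of the many ribosomal protein pseudogenes, have a part in these differences was not tested.

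**Figure D3:**
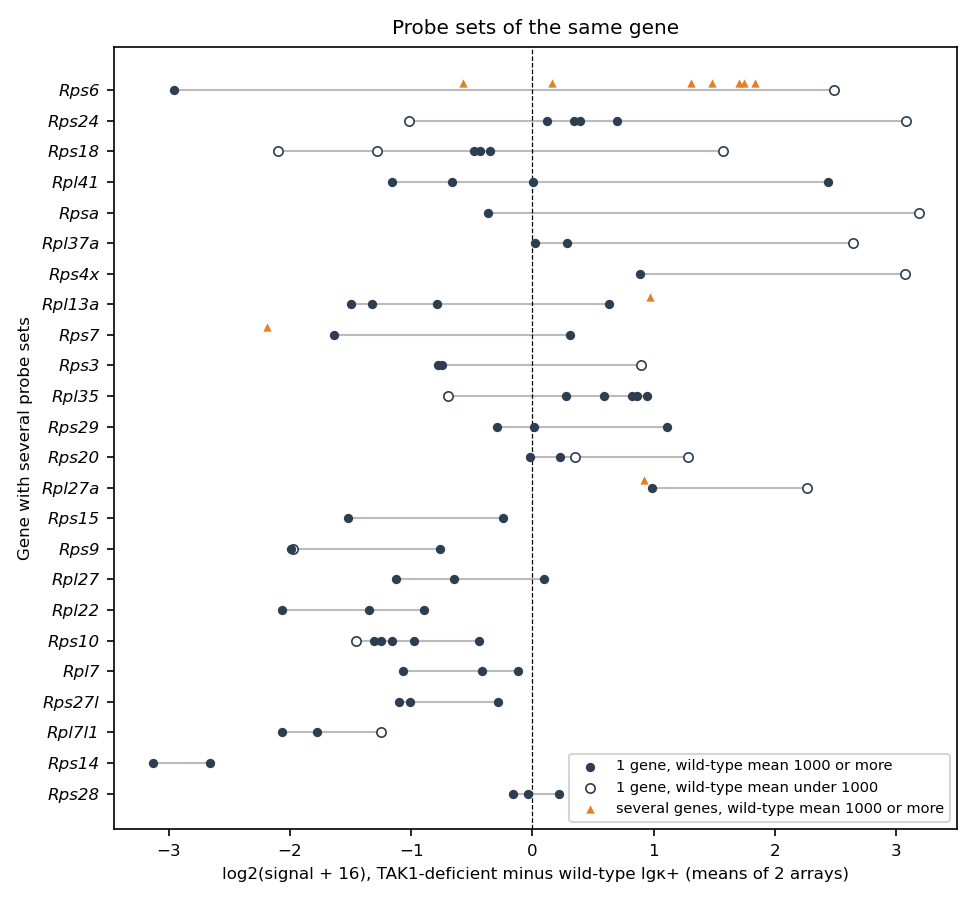
Log2 difference between TAK1-deficient and wild-type Igκ+ cells (means of 2 arrays each, deposited scaling) for every probe set of the 24 genes with several single-gene probe sets, with a line from the lowest to the highest. Filled points are sets with a wild-type mean of at least 1000, open points dimmer ones, and triangles sets that name several genes; Rps6 runs from -2.95 to 2.48 while Rps28 stays between -0.16 and 0.22.

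Probe sets that name several genes gave a separate view of the family. There were 110 of them, and 59 were higher in TAK1-deficient cells, with a median log2 difference of 0.21 (from -3.04 to 2.96) and a median of 0.00 between wild-type Igλ+ and Igκ+ cells. For the 28 symbols seen only here, the brightest set was higher for 15 and lower for 13, with a median of 0.23. It too was chosen over all arrays, so this split, its median and the counts below can lean to sets that are higher in TAK1-deficient cells. The groups did not overlap for 18 of the 28, where 89.6% of all tested genes were apart. Of the 18, 13 were higher and 5 lower, where 31.8% of all tested genes were apart and higher. Rpl32 and Rpl32l were counted on the same probe set. The extremes, named after their values were seen, were Rpl29, with 51543 and 43900 against 8835 and 11894 in wild-type Igκ+ cells (2.21), and Rplp1 (-2.67). Rpl17 and Rpl21 had differences of 1.99 and 1.84.

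For 15 genes both kinds of probe set could be compared, and 8 of them pointed in opposite directions. The set of several genes was brighter in wild-type Igκ+ cells for 11 of the 15. The 3 genes with the strongest single-gene losses that had both kinds were among the 8. Rps6 had a log2 difference of -2.95 on its brighter single-gene set and 1.75 on the brightest shared set, where its signals were 37936 and 37436 in TAK1-deficient against 10510 and 11950 in wild-type Igκ+ cells. Of 9 shared sets of Rps6, 8 were higher. The 4 with a wild-type mean of at least 5000 ran from 24166 to 38170 in TAK1-deficient against 7030 to 11950 in wild-type Igκ+ cells, with differences from 1.31 to 1.84. Rpl14 had -2.44 on its own set and 0.33 on the brightest of 5 shared sets, but the other 4 were lower, at -0.16, -0.87, -0.91 and -1.31. Rps25 had -2.07 on its own set and 0.58 on its only shared set. Rps27 had -0.96 and 1.2, Rps19 -0.80 and 2.71, Rps2 0.95 and -0.17, and Rps7 0.31 and -2.19. The shared set of Rps19 was dim, with 829 and 625 against 153 and 59.4 in wild-type Igκ+ cells. Rps16 was also among the 8, but its single-gene set gave no level, as given below. The other, dimmer shared set of Rps2 was higher, at 0.59, as its single-gene set was. Lower signals were therefore seen for Rpl14 on its own and 4 of 5 shared sets, and for Rps14 on both of its sets. For Rps6 and Rps25 they were not seen on the brightest shared sets, and Rpl8 and Rpl22l1 had no other set.

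The rest of the translation machinery had lower medians than the ribosomal proteins with the deposited scaling and the brightest probe set of each gene. Of 76 mitochondrial ribosomal protein genes tested, 1 was higher and 68 lower, with a median log2 difference of -1.49, where 26.1% of all genes were higher and 49.8% lower. Mrpl11 had 262 and 255 against 4341 and 4264 in wild-type Igκ+ cells (-3.98 ± 0.17). Mrpl14 had 37.2 and 36.7 against 554 and 525. Its TAK1-deficient signals were under the 95th percentile of unspiked control probe sets there, 77.7 and 75.7, so the size of its difference is not given. Mrps36 was the higher one, with 3287 and 2438 against 1417 and 1475 (0.96 ± 0.20). The 3 passed the test (limma, Benjamini-Hochberg adjusted p = 3.97e-06, 2.97e-05 and 0.00232). Of 29 initiation factors 0 were higher and 23 lower, again beside 26.1% and 49.8% of all genes, with a median of -1.59. Eif1ax, which helps select the start codon, had 487 and 511 against 3013 and 3874 (-2.74 ± 0.19), and Eif6, which keeps the subunits apart, had 315 and 378 against 2053 and 2434 (-2.64 ± 0.21). On a plain probe set of its own, Eif6 had a difference of 1.71.

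Of 32 ribosome assembly genes tested, 2 were higher and 23 lower, with a median of -1.34, where 26.1% of all genes were higher and 49.8% lower. Ubtf, the nucleolar factor of ribosomal RNA transcription, had 535 and 525 against 3427 and 3976 in wild-type Igκ+ cells (-2.76 ± 0.17), and Polr1b, a subunit of RNA polymerase I, had 21.7 and 13.2 against 203 and 192. The TAK1-deficient signals of Polr1b were under the level of unspiked control probe sets, 77.7 and 75.7, so no size is given. Nop56, of the box C/D particles, and Npm1, the nucleolar chaperone nucleophosmin, were the higher ones, with 9958 and 9873 against 4561 and 4394 (1.14 ± 0.16) and with 11889 and 12650 against 6480 and 6645 (0.90 ± 0.12). Of 10 regulators, 0 were higher and 4 lower, a share below the 49.8% of all genes, with a median of -0.52. Among the 4 were Rheb, the activator of mTOR, with 254 and 277 against 2532 and 2289 (-3.11 ± 0.19), and Rps6kb2, a kinase of Rps6, with 72.7 and 210 against 642 and 586 (-2.15 ± 0.44), the first of them under that level. All of these passed the test (limma, Benjamini-Hochberg adjusted p from 5.36e-06 for Rheb to 0.00221 for Rps6kb2).

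Genes outside the rule whose messages share the terminal pyrimidine tract were split in the deposited signals. Of 10 tested, mostly elongation factors, 2 were higher and 7 lower, with a median of -0.80, beside 26.1% and 49.8% of all genes. Eef1a1, which brings aminoacyl-tRNA to the ribosome, had 13518 and 15916 against 8677 and 9218 in wild-type Igκ+ cells (0.71 ± 0.13), and Tpt1 had 15754 and 19056 against 9818 and 11513 (0.70 ± 0.14). Hnrnpa1 had 1019 and 1384 against 4416 and 4414 (-1.88 ± 0.19), and Btf3 had 2439 and 1870 against 6559 and 9170 (-1.85 ± 0.20). All 4 passed (limma, Benjamini-Hochberg adjusted p from 4.09e-05 to 0.00173). Fau, which encodes ribosomal protein S30 fused to a ubiquitin-like protein, had 6035 and 7068 against 8186 and 11563 (-0.57 ± 0.18; limma, Benjamini-Hochberg adjusted p = 0.0165). Its call was lost without the first TAK1-deficient array (0.0898) or the second wild-type Igκ+ array (0.087).

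All of these lists moved with the scaling too. With the level adjustment the medians were -0.37 for mitochondrial ribosomal proteins, -0.27 for initiation factors, -0.02 for assembly genes, 0.32 for regulators and 0.09 for the elongation and terminal pyrimidine list, beside 0.70 for the cytosolic ribosomal proteins. With quantile normalization they were -1.54, -1.09, -0.77, -1.16 and -1.06, beside -0.81. Cytosolic ribosomal proteins thus had the highest median of the lists with the deposited scaling and the level adjustment, and not with quantile normalization, where assembly genes lay at -0.77. With plain probe sets only, they lay at -1.07, below the regulators at -0.35 and the elongation and terminal pyrimidine list at -0.27. No difference between lists was tested.

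**Figure D4:**
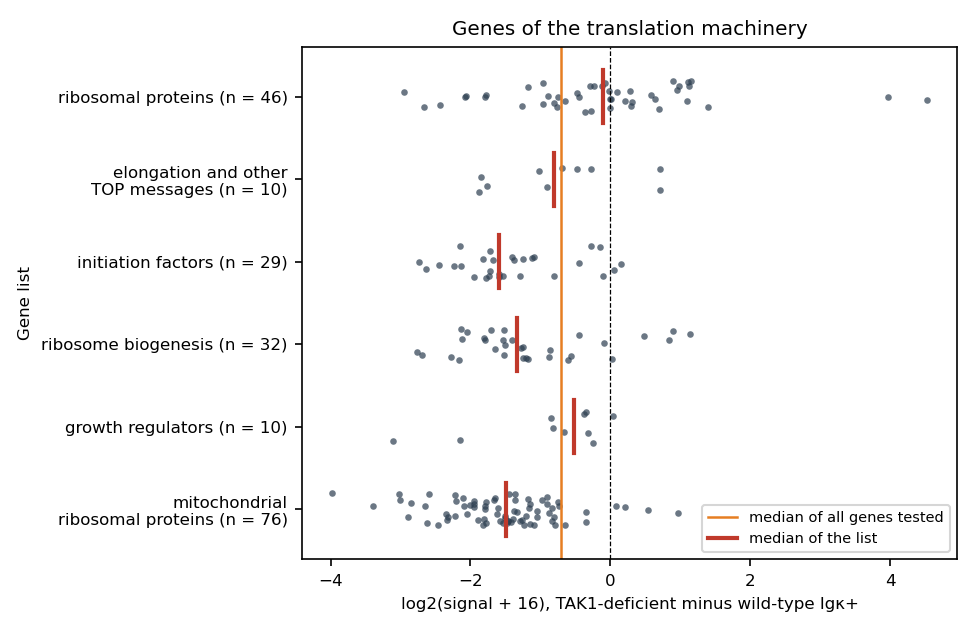
Log2 difference between TAK1-deficient and wild-type Igκ+ cells (deposited scaling) for each tested gene of 6 lists of the translation machinery, with the median of each list (red) and of all genes tested (orange, -0.70). The cytosolic ribosomal proteins have a median of -0.10 and spread from -2.95 to 4.53, and the mitochondrial ribosomal proteins have a median of -1.49; with the level adjustment these medians are 0.70 and -0.37, and with quantile normalization -0.81 and -1.54.

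The second comparison asked whether the light chain on the surface of wild-type cells goes with other ribosomal protein levels. No gene passed. Of the 46 genes, 0 passed the test, as did 0 of 11696 genes (0%), and at an unadjusted p under 0.05 there were 0 of 46 against 2.04% of all genes (limma). Igλ+ and Igκ+ arrays were apart for 7 of the 46 (15.2%), where 22.7% of all genes had them apart. The median log2 difference of Igλ+ minus Igκ+ cells was 0.02, and 0.04 over all genes. Its median size was 0.04 against 0.16 over all genes, and 42 of the 46 differences were below 0.2. The 95% intervals had a median half-width of 0.32, so differences of that size in a single gene would not have been detectable. Over the 46 genes the bounds reached from -1.48 (Rpl39l) to 1.72 (Rpl39).

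The genes nearest to a difference were the core genes with the smallest unadjusted p. On the higher side these were Rpl39, at 88.3 and 70.4 in Igλ+ against 24.5 and 53.3 in Igκ+ cells (0.84 ± 0.38), Rpl12, at 2355 and 1809 against 1914 and 1384 (0.34 ± 0.24), and Rps18, at 9790 and 10082 against 9256 and 9395 (0.09 ± 0.11). On the lower side they were Rps27, at 507 and 484 against 632 and 647 (-0.36 ± 0.28), Rpl11, at 9864 and 10091 against 12231 and 10062 (-0.15 ± 0.13), and Rps19, at 9152 and 8697 against 8152 and 11226 (-0.10 ± 0.16). Rpl12, Rpl11 and Rps19 overlapped between the groups, while Rpl39, Rps18 and Rps27 did not. None passed with any alternative tried.

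Single wild-type arrays differed by more than the light chains did. The median deviation of the 46 genes from the mean of the 4 wild-type arrays was -0.11 on the first and 0.13 on the second Igκ+ array, and 0.03 and -0.02 on the Igλ+ arrays. The first Igκ+ array was the lowest of the 4 for 36 genes and the second the highest for 31. The second exceeded the first for 41 of 46 genes (89.1%), with a median log2 difference of 0.25, where 39.3% of all genes did so. The median difference between the light chains was -0.12 without the first Igκ+ array and 0.13 without the second. Granulocyte markers also differed between replicates, with sums over 8 genes of 5198 and 313 on the Igκ+ arrays and 36120 and 320 on the Igλ+ arrays, and the Igλ+ array with 36120 lay near the median of these genes. The same pair of Igκ+ arrays set the genotype comparison, where the median of these genes was -0.23 without the first and -0.01 without the second. Among the wild-type arrays the highest over the lowest signal of a gene had a median of 1.24 for these genes and 1.5 for all genes, and it stayed below 1.5 for 41 of the 46.

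**Figure D5:**
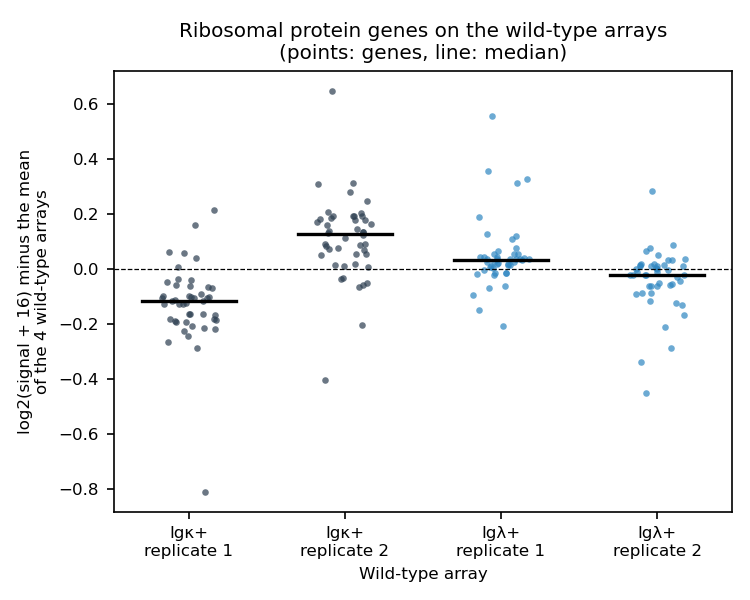
Deviation of each of 46 ribosomal protein genes from its mean over the 4 wild-type arrays (log2(signal + 16)), with the median of each array as a line. The medians are -0.11 and 0.13 on the 2 Igκ+ arrays and 0.03 and -0.02 on the 2 Igλ+ arrays, so the widest gap lies between arrays of the same group.

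Of the 49 genes, 3 did not pass the filter on low signals. Rpl37 had 67.7 and 44.1 in TAK1-deficient, against 51.3 and 20.7 in wild-type Igκ+ and 67.1 and 55.5 in Igλ+ cells, and Rps16 was at 3.51 and 3.02, 0.957 and 0.203, and 0.766 and 1.37. Both are core proteins of every ribosome, and their shared probe sets were bright. That of Rpl37 had 18289 and 18142 in TAK1-deficient against 11313 and 12667 in wild-type Igκ+ cells, and that of Rps16 had 7833 and 8263 against 7219 and 9250. The single-gene sets of Rpl37 and Rps16 therefore gave no level for these genes.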

How the data were processed

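RNA of sorted mouse B cells was measured on 6 arrays in 3 groups of 2. The authors deposited a signal per probe set, an array intensity on a linear scale. The submitters' processing notes name MAS5, with a version not given in the sources used here. In the files every array had the same trimmed mean (lowest and highest 2% left out). Whether this scaling has a part in the raised dim signals of the TAK1-deficient arrays was not tested. The number of arrays limits the precision.

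Probe sets were named from the platform annotation. Signals were converted to log2(signal + 16), which understates differences of dim genes. The probe set that was brightest over all 6 arrays, TAK1-deficient ones included, stood for a gene. Genes passed the filter where their mean exceeded the 40th percentile over probe sets (11696 of 18193). Groups were compared with limma 3.58.1 in R 4.3.3 (lmFit with group means on all 6 arrays, eBayes with a trend, two-sided, Benjamini-Hochberg adjusted over all genes, threshold 0.05), tested on simulated data. Descriptions and figures used Python 3.11.15 and matplotlib 3.10.9.

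The members, lists and tests were chosen with earlier results of these data known. Genes were named by rule: the 8 core genes with the largest differences in each direction among those called with groups apart, the stalk, extra-ribosomal and paralog genes with their parents, the 3 smallest unadjusted p where none was called, the 3 genes whose probe sets differed most and least, and up to 2 per direction of other lists. Those whose probe sets differed least were taken among genes with at least 3 sets. Alternatives were pseudocounts of 1 and 64, no filter and the 60th percentile, quantile normalization, median centring, scaling on 18 spiked-control probe sets, a lowess level adjustment (span 0.2), every probe set, the median over probe sets, plain sets only, eBayes with no trend, a fit of the 4 compared arrays alone, a replicate block by the suffix in the titles, and each array left out.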

Additional observations from a re-analysis of the deposited data

How the results depend on the processing

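The count of 33 ribosomal protein genes called between TAK1-deficient and wild-type Igκ+ cells lay between 28 and 46 under all alternatives but plain probe sets, where 21 of 24 were called, and between 28 and 32 without single arrays. With the title suffix as a replicate block 32 were called, 13 higher and 19 lower, and no direction of the named genes changed. Arrays with the same suffix are not known to be paired, and their deviations correlated by 0.01, 0.03 and 0.22 in the 3 pairs of groups. The median of -0.10 moved to -0.81 (quantile normalization), -2.81 (median centring), -3.55 (spiked-control scaling), 0.70 (level adjustment), -0.26 (median over probe sets) and -1.07 (plain sets), and lay between -0.23 and -0.0071 without single arrays. The light chain median of 0.02 moved to -0.18 (median centring) and -0.17 (spiked-control scaling), and lay between -0.12 and 0.13 without single arrays, with 0 members called under every alternative. For those medians with a changed sign the cause was not tested.

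Named genes whose genotype difference changed sign were as follows, also with the cause not tested. Level adjustment: Rps18 0.37, Rpsa 0.42, Fau 0.28, Rplp2 0.26, Rps3 0.0404, Rpl12 0.17, Rps27l 1.21, Rpl7 0.77, Rpl11 0.50 and Rps19 0.0783. Median centring: Rpl7a -1.33, Tpt1 -2.01, Rps24 -2.02, Rps28 -2.50, Rps29 -1.61, Rps3a1 -1.56, Rps4x -1.83, Rps2 -1.76, Rpl4 -1.59, Eef1a1 -2.0, Rpl38 -1.62, Npm1 -1.81, Nop56 -1.57, Mrps36 -1.74 and Rpl27a -1.73. Spiked-control scaling: Rpl4 -2.33, Eef1a1 -2.74, Rps4x -2.57, Rpl27a -2.47, Rps3a1 -2.30, Rpl7a -2.07, Rps24 -2.76, Mrps36 -2.46, Rps29 -2.35, Npm1 -2.55, Rps2 -2.50, Rps28 -3.24, Nop56 -2.31, Rpl38 -2.37 and Tpt1 -2.75. Quantile normalization: Rps3a1 -0.12, Rps29 -0.37, Rps28 -1.08, Tpt1 -0.36, Rpl4 -0.20, Rps27l 0.52, Rpl27a -0.10, Rps24 -0.31 and Rpl38 -0.24. Median over probe sets: Rps18 0.57, Rpsa 1.41, Rps28 -0.04 and Npm1 -0.000895. Plain sets: Rps18 1.57, Rps24 -1.02, Eif6 1.71 and Nop56 -0.14. The filter, the pseudocounts, every probe set as a feature, eBayes without a trend, the 4 compared arrays alone and leaving out single arrays turned 0 named genotype differences. Between the light chains Rps18 (median centring, spiked-control scaling) and Rps19 (without the second wild-type Igκ+ array) changed sign without passing. Raised signals of dim probe sets on the TAK1-deficient arrays limit what can be read from genes under about 1000.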
